A study of Mus musculus with 10 samples.

Results

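Mitochondrial ribosomal protein genes were taken as the rows of the authors' deposited table whose symbol starts with Mrpl or Mrps followed by a digit. They numbered 76 of the 12791 genes in that table. Of these, 49 encode proteins of the large subunit of the mitochondrial ribosome, among them Mrps18a and Mrps30 in spite of their names, and 26 encode proteins of the small subunit. The remaining gene, Mrps36, carries a ribosomal name, but its product is known as a part of the 2-oxoglutarate dehydrogenase complex.

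Bulk RNA sequencing was made of hematopoietic progenitors from the bone marrow of C57BL/6 mice. The sort kept cells without lineage markers and without Sca-1 that carried c-Kit. The labels give 10 libraries in 3 groups. Tumor-free mice gave 3 naive libraries. Mice at week 4 after implantation of GL261, a mouse glioma line, gave 4 libraries of KDR-negative and 3 of KDR-positive progenitors. KDR is a receptor of vascular endothelial growth factor and was followed through GFP knocked into its gene, and GFP-positive samples came from about 20000 cells. Ages are not given, and neither is which libraries stem from different mice, so the spread behind the p-values may be technical.

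The mitochondrial ribosome translates the few proteins that the mitochondrial genome encodes, all of them core parts of the respiratory chain and of ATP synthase. Its proteins are encoded in the nucleus, made in the cytosol and imported, and they are needed in nearly every cell type. Some descend from bacterial ribosomal proteins, and others were added during the evolution of mitochondria. Erythroid progenitors are known to depend on mitochondrial translation while they mature.

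The authors' deposited table covers 2 comparisons between groups. For each it lists per gene the log2 fold change, the mean level as log2 CPM, a p-value and a Benjamini-Hochberg adjusted p-value. CPM are counts scaled per library, but how they were scaled is not stated. Scaling to the library total alone is not assumed here, as the derived totals given below lie far apart. Values per library are not in this table. Depth is therefore unknown, and the fold changes below carry no standard deviation. Its headers name neither the groups compared nor the direction. A positive fold change means higher in what is called here the numerator group, and a negative one higher in the denominator group. Levels of single groups were worked out per gene from its mean level and its fold change, weighting both groups equally. Over the 76 genes the denominator levels so derived varied between the comparisons by a median absolute deviation of 0.0043 on the log2 scale, and the next closest pair of sides by 0.036, so the comparisons share their denominator group and are not independent.

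Promoters of the genes at the ends of the range are shown to place the family on the genome. The sequences are the 250 bases before the annotated start of transcription from RefSeq on GRCm38.p6, 5′ to 3′ on the strand of the gene. Each set holds the gene with the largest and the gene with the smallest fold change of a subunit in the first comparison. Capitals mark matches, on either strand, to motifs of factors known to bind promoters of nuclear genes for mitochondria or of growth genes. These are GCGCANGCG for NRF1, CCGGAAGT for GABPA and other ETS factors, AANATGGCG for YY1 and CACGTG for MYC and MAX.
Mrpl51 (chr6:125191950-125192199, plus strand): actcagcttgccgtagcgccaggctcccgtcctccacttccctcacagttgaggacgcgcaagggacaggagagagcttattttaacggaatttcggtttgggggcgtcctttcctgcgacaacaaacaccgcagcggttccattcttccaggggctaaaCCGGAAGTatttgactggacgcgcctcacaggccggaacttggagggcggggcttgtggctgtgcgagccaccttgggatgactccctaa
Mrpl1 (chr5:96209865-96210114, plus strand): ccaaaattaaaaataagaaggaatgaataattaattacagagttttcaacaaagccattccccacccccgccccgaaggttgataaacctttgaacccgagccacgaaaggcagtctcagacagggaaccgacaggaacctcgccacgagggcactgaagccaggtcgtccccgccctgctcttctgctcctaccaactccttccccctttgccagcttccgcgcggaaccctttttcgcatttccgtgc
Mrps21 (chr3:95871515-95871764, minus strand): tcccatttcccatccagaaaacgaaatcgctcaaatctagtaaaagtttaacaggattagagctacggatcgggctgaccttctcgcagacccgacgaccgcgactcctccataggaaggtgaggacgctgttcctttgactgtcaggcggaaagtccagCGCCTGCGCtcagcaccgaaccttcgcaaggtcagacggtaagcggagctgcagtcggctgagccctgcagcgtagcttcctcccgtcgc
Mrps31 (chr8:22411090-22411339, plus strand): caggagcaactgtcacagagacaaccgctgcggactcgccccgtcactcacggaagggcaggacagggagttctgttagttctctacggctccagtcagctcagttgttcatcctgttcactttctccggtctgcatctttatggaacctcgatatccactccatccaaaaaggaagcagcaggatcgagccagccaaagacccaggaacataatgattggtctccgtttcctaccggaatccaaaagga

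Mrpl51 held an ETS match that began 90 bases before the start, and Mrps21 an NRF1 match, on the opposite strand, that also began 90 bases before it. No match to these letters lay in the windows of Mrpl1 and Mrps31. RefSeq promoter windows of 300 bases, 50 of them after the start, were found by symbol for 67 of the 76 genes, in 73 windows. An NRF1 match lay in 20.5% of these windows, against 6.25% of all 32851 promoter windows and 16.6% of those of other genes at a mean level of 5 to 7 log2 CPM. For the ETS motif the shares were 16.4%, 3.89% and 9.9%, for YY1 13.7%, 2.38% and 6.28%, and for the MYC and MAX motif 9.59%, 7.15% and 11.4%, in the same order. The 4 promoters shown do not stand for the family. An NRF1 match lay in 13.3% of the 30 windows of genes called higher in the first comparison (adjusted p under 0.05). It lay in 25.6% of the 43 windows of genes not called. For ETS these shares were 23.3% and 11.6%, for YY1 13.3% and 14%, and for MYC and MAX 10% and 9.3%. All of these are letter matches, which may overlap each other, and no test was made of them.

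In the first comparison of the authors' deposited table, 28 of the 76 genes (36.8%) were higher in the numerator group at an adjusted p under 0.05, and none was lower. Over all 12791 genes the share called was 22.3%, with 18.8% higher and 3.49% lower. The median log2 fold change of the 76 genes was 0.52, with quartiles of 0.16 and 0.99, against -0.14 for all other genes. Fold changes ran from -0.54 for Mrps31 to 2.16 for Mrps21, and 64 of the 76 were above 0. These directions hold on the deposited scale only. Derived CPM summed over all genes to 2080931 in the numerator group and 747908 in the denominator group, a log2 ratio of 1.48. What part of this gap the unstated scaling or the equal weighting of groups made was not tested. At equal totals the median of the 76 genes would be -0.95, with 10 of the 76 above 0. As a share of the summed CPM, the 76 genes made up 0.610% in the denominator group and 0.432% in the numerator group.

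Taken over all levels, genes of like level moved to a similar extent. Fold changes in the table rose with level, from a median of -0.31 for other genes at 4 to 5 log2 CPM to 1.51 at 7 to 8. Other genes, weighted to the levels of the 76 in steps of 0.5 log2 CPM, had a median fold change of 0.57, and 41.7% of them were called higher and 2.25% lower. The share of 36.8% among the mitochondrial ribosomal protein genes lay near this background. Of the 76 genes, 34 lay above the median of other genes in their own level step, with a median difference of -0.06. This was not even over levels. The family had a median of 0.49 at 3 to 4 log2 CPM (2 genes), against -0.54 for other genes. At 4 to 5 (9 genes) it had 0.09 against -0.31. At 5 to 6, 6 to 7 and 7 to 8 it had 0.126, 0.72 and 1.39, against 0.132, 0.77 and 1.51. Taking likeness from the derived level in the denominator group gave a median of 0.42 for other genes. That level is worked out with the fold change, so it is not free of it either. The side on which the family lay thus depended on how like level was defined.

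**Figure D1:**
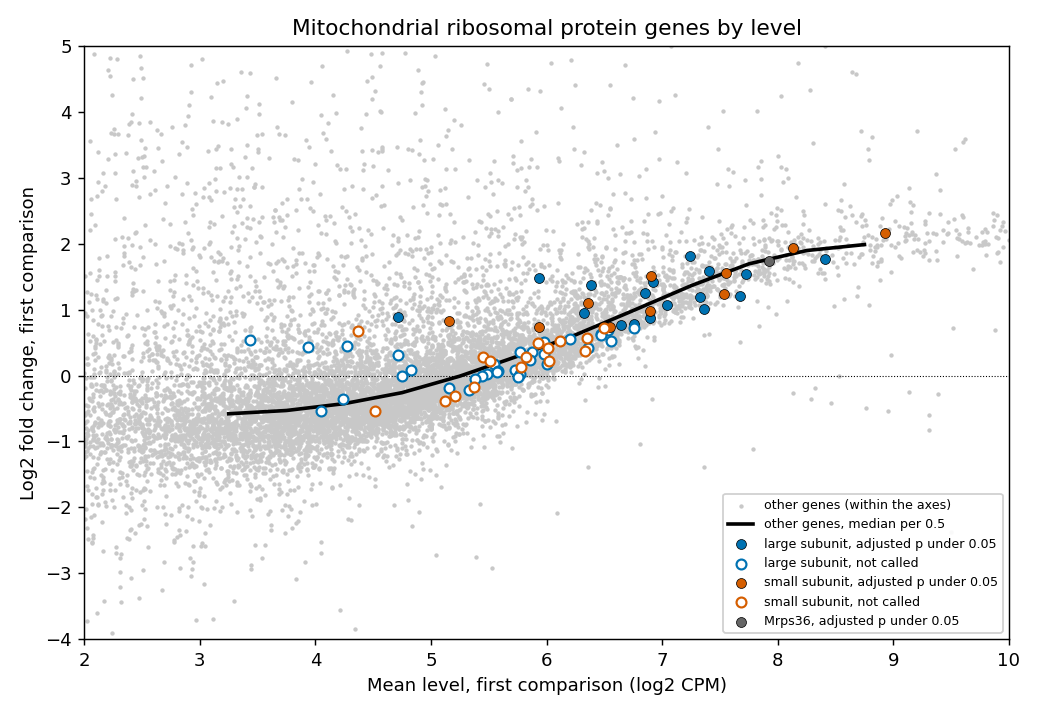
Log2 fold change against mean level in log2 CPM, both of the first comparison of the authors' deposited table, for mitochondrial ribosomal protein genes (large circles; filled where the adjusted p is under 0.05) and for other genes within the axes (small grey points), with the median of other genes per 0.5 log2 CPM as a line. From 5 log2 CPM upward the circles rise with the line. Below it their medians lie above those of other genes, 0.49 against -0.54 at 3 to 4 and 0.09 against -0.31 at 4 to 5. In all, 34 of 76 lie above the median of their level step.

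The calls fell mostly on the genes with the highest read levels. Above 7 log2 CPM 13 of 13 of the family were called higher, 10 of 10 at 7 to 8 and 3 of 3 at 8 to 9, where 96.9% and 90% of other genes were. At 6 to 7 log2 CPM 11 of 25 were called, or 44%, against 51.8% of 1164 other genes. At 5 to 6 the numbers were 3 of 27, or 11.1%, against 16.2% of 2369 other genes. Below 5 log2 CPM 1 of 9 was called at 4 to 5, and 0 of 2 at 3 to 4. All 76 genes had a mean of at least 3.44 log2 CPM, so none would be lost to a filter at 3 log2 CPM.

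**Figure D2:**
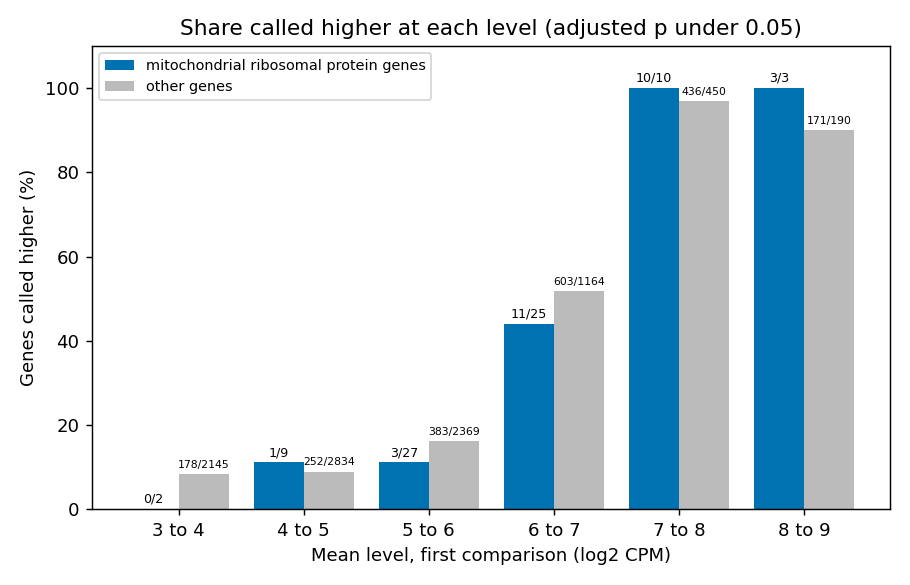
Percent of genes called higher in the first comparison (adjusted p under 0.05 in the authors' deposited table) by mean level in steps of 1 log2 CPM, for mitochondrial ribosomal protein genes (blue bars) and other genes (grey bars), with the number called over the number in the step above each bar. Blue and grey bars rise together from under 20% below 6 log2 CPM to 90% or more above 7.

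Large subunit genes were called higher for 17 of 49, or 34.7%, with a median log2 fold change of 0.51. Small subunit genes were called for 10 of 26, or 38.5%, with a median of 0.54. Other genes at the levels of each subunit had medians of 0.55 for the large and 0.55 for the small subunit, and 41.5% and 39.9% of them were called higher. No difference between the subunits was tested, and their medians lay 0.03 apart.

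Among large subunit proteins the highest fold changes belonged to Mrpl51, Mrpl23, Mrpl42, Mrpl12 and Mrpl21. Mrpl51, a protein without a bacterial counterpart, had a level of 67.1 CPM in the denominator group and 235 CPM in the numerator group, 1.81 as log2 fold change (adjusted p = 2.83e-08 in the authors' deposited table). Mrpl23, whose bacterial relative lines the exit of the peptide tunnel, stood at 154 and 526 CPM, with 1.77 (adjusted p = 2.12e-08 in the authors' deposited table). Mrpl42 stood at 85.1 and 255 CPM, with 1.58 in the authors' deposited table. All 3 lay between 7 and 9 log2 CPM, where nearly every gene of the table was called.

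Mrpl12, the mitochondrial relative of the bacterial stalk protein L7/L12 that recruits translation factors, stood at 108 and 316 CPM in the denominator and the numerator group, 1.55 as log2 fold change (adjusted p = 7.92e-07 in the authors' deposited table). Mrpl10, which anchors that stalk, had 0.05 (adjusted p = 1 in the authors' deposited table), and Mrpl11 at the stalk base 0.45 (adjusted p = 0.543). Against the median of other genes in their level steps, Mrpl12 lay at -0.15, Mrpl10 at -0.24 and Mrpl11 at 0.87, so their order by fold change was not that at like level. Mrpl21 stood at 32.4 and 90.2 CPM, with 1.48 (adjusted p = 2.51e-06 in the authors' deposited table). This was 1.18 above the median of other genes at 5.5 to 6 log2 CPM, the widest such gap in the family.

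The lowest fold changes of the large subunit belonged to Mrpl1, Mrpl19, Mrps30, Mrpl50 and Mrpl47, and none of them was called. Mrpl1, of the mobile stalk beside the exit site of the tRNA, stood at 19.6 CPM in the denominator group and 13.6 CPM in the numerator group, -0.53 as log2 fold change (adjusted p = 0.495 in the authors' deposited table). Mrpl19 had -0.36 (adjusted p = 0.677), Mrps30 -0.21 (adjusted p = 0.728), Mrpl50 -0.19 (adjusted p = 0.797) and Mrpl47 -0.06 (adjusted p = 1) in the authors' deposited table. Their mean levels lay between 4.05 and 5.38 log2 CPM, where other genes had medians between -0.43 and -0.01. Mrpl17 at 3.44 log2 CPM and Mrpl35 at 3.94 had the lowest mean levels, with fold changes of 0.54 and 0.43 in the authors' deposited table that were not called (adjusted p = 0.63 and 0.55).

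Small subunit proteins were led by Mrps21, Mrps33, Mrps18b, Mrps5 and Mrps16. Mrps21, the relative of a small bacterial protein of the subunit platform, stood at 178 CPM in the denominator group and 796 CPM in the numerator group, the highest read level of the family, with 2.16 as log2 fold change (adjusted p = 5.46e-12 in the authors' deposited table). Mrps33, found in mitochondria only, stood at 116 and 444 CPM, with 1.94 (adjusted p = 1.27e-08 in the authors' deposited table). Mrps5, whose bacterial relative takes part in the accuracy of decoding, had 1.51 (adjusted p = 8.55e-06 in the authors' deposited table) and lay 0.52 above other genes of its level step. Mrps16, at 111 and 260 CPM, had 1.24 (adjusted p = 0.000114 in the authors' deposited table) and lay below its level step, by -0.46. Genes near the top of the family thus lay on both sides of other genes of their level.

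The lowest of the small subunit were Mrps31 at -0.54, Mrps27 at -0.39, Mrps2 at -0.31, Mrps22 at -0.17 and Mrps35 at 0.13 in the authors' deposited table, with adjusted p-values of 0.355, 0.445, 0.573, 0.828 and 0.857. Mrps27 belongs to the pentatricopeptide repeat proteins, which bind RNA. Mrps31 stood at 27.1 CPM in the denominator group and 18.7 CPM in the numerator group. Mrps12, next to the decoding site and the relative of the bacterial protein in which streptomycin resistance arises, was called with the largest adjusted p of the 28 (0.0446), at 0.74 in the authors' deposited table. Mrpl13 at 0.73 lay just beyond the threshold (adjusted p = 0.0503 in the authors' deposited table).

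Mrps18a, Mrps18b and Mrps18c are relatives of 1 bacterial protein, S18, and sit at different places of the ribosome, the first in the large and the others in the small subunit. Mrps18b had 1.55 as log2 fold change (adjusted p = 5.89e-06 in the authors' deposited table) and Mrps18c 0.99 (adjusted p = 0.0121), while Mrps18a had 0.17 (adjusted p = 0.803). Their denominator levels were 95.1, 79.7 and 60.2 CPM, in the same order. Other genes of their level steps had medians of 1.69, 0.99 and 0.62, so the order of the paralogs was that of their levels. Differences between the paralogs were not tested.

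**Figure D3:**
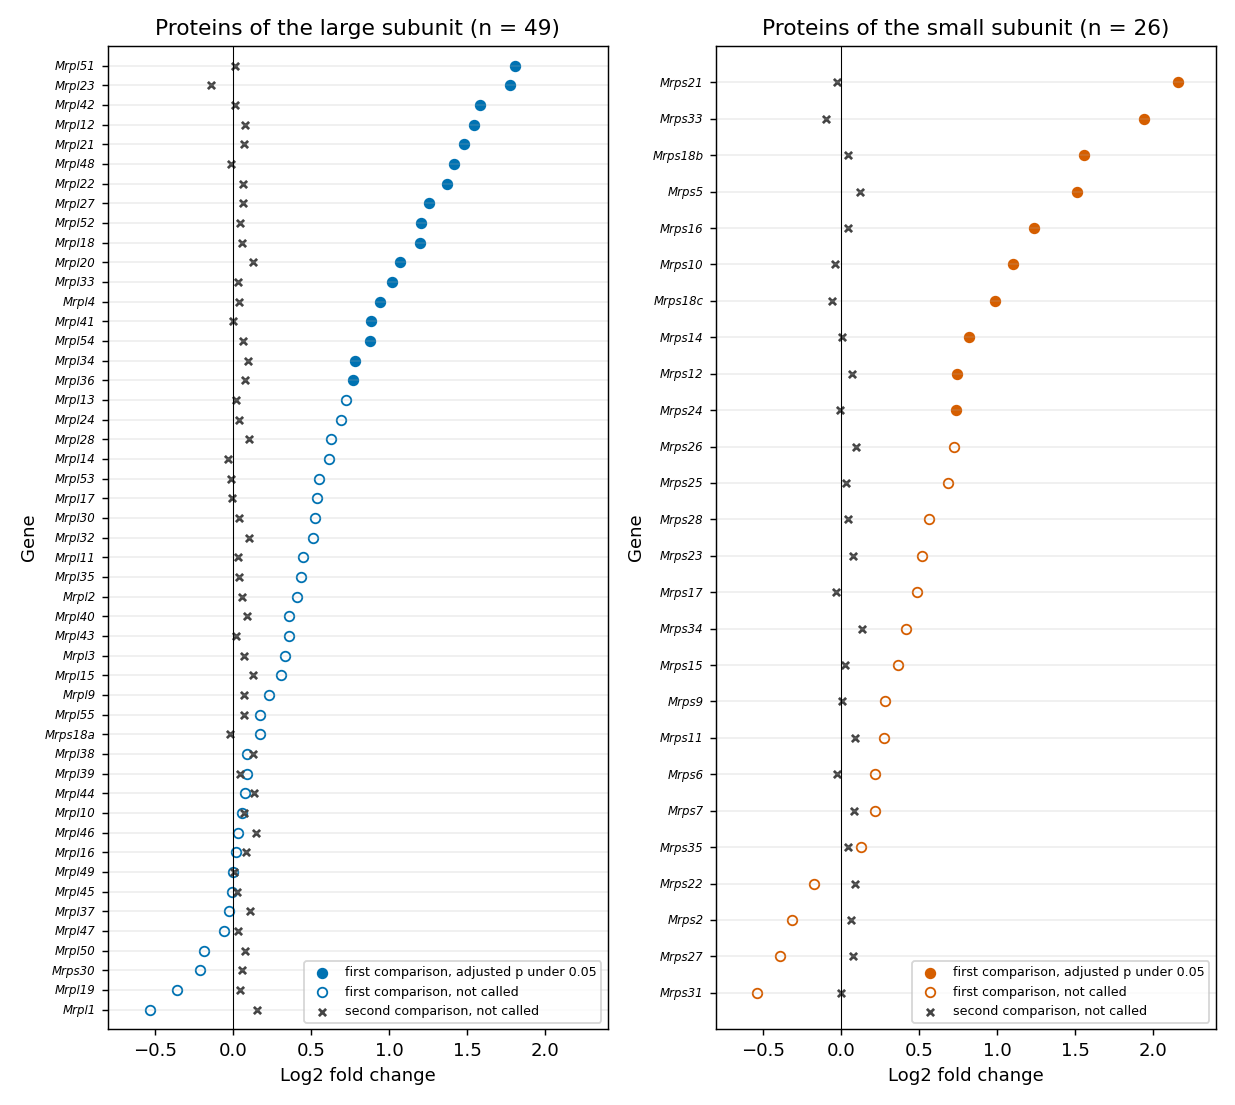
Log2 fold changes of the authors' deposited table for each large subunit gene (left, 49) and small subunit gene (right, 26), as circles for the first comparison (filled where the adjusted p is under 0.05) and crosses for the second, with genes ordered by the first. Circles spread from -0.54 to 2.16, while crosses stay between -0.14 and 0.15.

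Proteins with a bacterial counterpart were called higher more often than those found in mitochondria only, but so were other genes of their levels. Of 46 genes with a counterpart 19 were called, with a median of 0.59, where other genes of like level had 0.62 and 43.7% of them were called. Of 29 genes without one, with Mrps18a and Mrps18b counted here by their place in the ribosome, 8 were called, with a median of 0.36 against 0.42, and 36.5% of other genes. In the small subunit 8 of 16 genes with a counterpart and 2 of 10 without one were called. Other genes at their levels were called higher for 42.6% and 35.8%. The difference between the classes was not tested. Mrps36, of the dehydrogenase complex, stood at 112 CPM in the denominator group and 374 CPM in the numerator group, with 1.73 (adjusted p = 2.34e-08 in the authors' deposited table).

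Short coding sequences had the larger fold changes. With the 76 genes split into 3 sets by coding length in GENCODE M21, the 25 shortest, of 195 to 480 bases, had a median log2 fold change of 0.88, and 17 of them were called. The 26 of middle length had 0.55 with 8 called, and the 25 longest, of 762 to 1326 bases, had 0.09 with 3 called, namely Mrps18b, Mrps5 and Mrpl4. These are shares of 68%, 30.8% and 12%. Other genes at the levels of the 3 sets were called higher for 63.6%, 37.5% and 24.0%. Over the 76 genes fold change and coding length had a Spearman coefficient of -0.58 (Pearson -0.55). Length went with level, at -0.45 (Spearman), and fold change with level at 0.80, where the mean level holds the fold change in itself. All of these points share the same libraries. With the median of other genes of the level step taken off, the Spearman coefficient between what remained and coding length was -0.08. The median differences from like-level genes were -0.07, 0.04 and -0.14 for the short, middle and long set, so little of the order by length was left at like level.

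**Figure D4:**
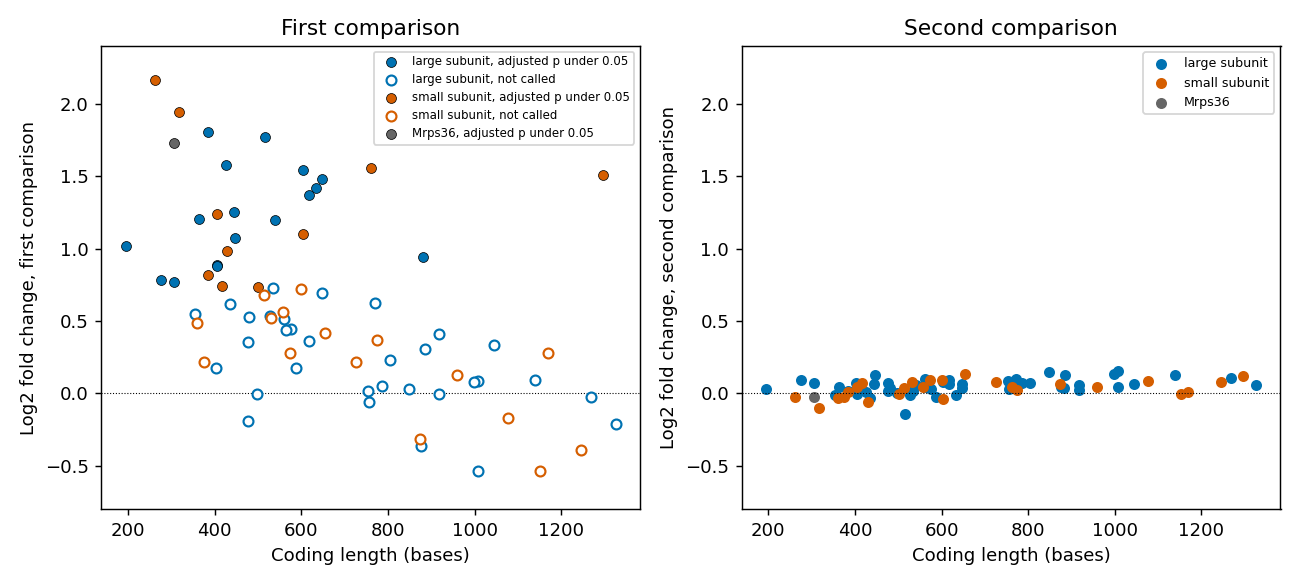
Log2 fold changes of the authors' deposited table against coding length in bases (GENCODE M21) for the first comparison (left; filled circles have an adjusted p under 0.05) and the second (right), on the same vertical scale, coloured by subunit. In the first comparison 17 of the 25 shortest genes and 3 of the 25 longest are called, and no gene is called in the second. Of other genes at the levels of these 2 sets, 63.6% and 24.0% are called higher in the first comparison.

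In the second comparison no mitochondrial ribosomal protein gene was called, in a table where 0.109% of genes were, 0.0704% higher and 0.0391% lower. None of the 76 had an unadjusted p under 0.05 in the authors' deposited table, and 43 of all other genes did. The smallest p-values of the family were 0.57 for Mrpl46, with 0.15 as log2 fold change, and 0.611 for both Mrpl23 and Mrpl44, at -0.14 and 0.13 in the authors' deposited table. With no standard errors in the table, how large a change could have been missed is unknown. The fold changes were small and mostly of 1 sign. They ran from -0.14 to 0.15 with a median of 0.05, and 60 of 76 (78.9%) were above 0, where like-level genes had a median of 0.04 and 68.4% above 0.

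In the second comparison the number of genes above 0 differed between the length sets as well. This difference was not tested, and all of these genes share the same libraries. Of the 25 shortest genes 16 were above 0, of the 26 of middle length 20, and of the 25 longest 24, the exception being Mrps31 at -0.00 in the authors' deposited table (unadjusted p = 1). Genes of like level to these sets were above 0 in 71.2%, 67.8% and 66.3%. Summed over the 76 genes, the derived levels were 4566 CPM in the denominator group, 4693 CPM in the numerator group of the second comparison and 8980 CPM in that of the first.

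Mitoribosome proteins under other names were 7 genes, all above 0 in the first comparison, and 2 of them were called higher. Chchd1 had 0.89 as log2 fold change (adjusted p = 0.0103) and Mrp63 0.99 (adjusted p = 0.0164), per the authors' deposited table, beside Aurkaip1 at 0.69 (adjusted p = 0.0787) and Ptcd3 at 0.61 (adjusted p = 0.174). Dap3, a GTP-binding protein of the small subunit, had 0.24 (adjusted p = 0.728 in the authors' deposited table). Together the 7 had a median of 0.61, against 0.40 for other genes of like level. The share called higher, 28.6%, lay near the 29.9% of those other genes. The difference in medians was not tested.

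Genes that work with the mitochondrial ribosome mostly lay at lower levels. Of 19 measured mitochondrial translation factors 1 was called higher and none lower, with a median of -0.28, against -0.26 for genes of like level, of which 13.8% were called higher. That gene was Tufm, the elongation factor that brings aminoacyl-tRNA to the ribosome, at 1.86 in the authors' deposited table, while the initiation factor Mtif2 at -0.79 (adjusted p = 0.142), Guf1 at -0.77 and Gfm2 at -0.57 were not called. Among 26 genes of mitoribosome assembly and ribosomal RNA modification 1 was called higher, the GTPase gene Gtpbp10 at 0.87 (adjusted p = 0.0453 in the authors' deposited table), with a median of -0.22 against -0.19 at like level, where 11.0% were called higher. Tfb1m, a methyltransferase of the small subunit RNA, had -0.98 (adjusted p = 0.0509) in the authors' deposited table.

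Mitochondrial aminoacyl-tRNA synthetases and their partners were called higher for 1 of 19, with a median of -0.52, against -0.26 at like level, where 13.9% were called higher. Lars2, the leucyl-tRNA synthetase gene, stood at 390 CPM in the denominator group and 8541 CPM in the numerator group, 4.45 on the log2 scale of the authors' deposited table. In the first numerator group this was most of the 8897 CPM summed over its list. Rn45s, a ribosomal RNA precursor gene, had a log2 fold change of 5.13 at a mean level of 12.89 log2 CPM. Whether all reads counted to Lars2 came from its mRNA was not tested. Mars2 at -1.06 and Hars2 at -0.65 were not called. For mitochondrial transcription and genome maintenance 3 of 16 genes were called higher, Tfb2m at 1.79, Tk2 at 1.08 and Hsd17b10 at 0.73 in the authors' deposited table, with a median of -0.32 against -0.14 at like level. The share of 18.8% was near the 16.2% of genes of like level. Protein import genes, which carry the ribosomal proteins into the organelle, were called higher for 15 of 30, with a median of 0.66 against 0.60 at like level, where 44.3% were, and those of smallest p were Pam16 at 2.36, Timm23 at 2.21, Tomm7 at 1.76 and Timm8a1 at 1.94 in the authors' deposited table. None of these lists held a gene called lower in the first comparison or a gene called in the second.

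Known regulators of nuclear genes for mitochondria were called higher for 2 of 13, Mycn at 1.89 and Max at 0.84 (adjusted p = 0.0237) in the authors' deposited table, with a median of -0.26 against 0.01 at like level, where 16.5% were called higher. Sp1 at -0.81 and Gabpb2 at -0.81 were not called. No mitochondrially encoded gene was found in the table by its mt- symbol, so the products of mitochondrial translation are not analysed here.

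Cytosolic ribosomal proteins and subunits of oxidative phosphorylation, the groups most like the family, were called higher more often. Of 82 cytosolic ribosomal protein genes 77 (93.9%) were called higher, with a median of 2.03, at a median level of 12.33 log2 CPM. Oxidative phosphorylation subunits were called higher for 68 of 79 (86.1%), with a median of 1.36, at a median level of 7.49 log2 CPM, and for 1 lower. The mitochondrial ribosomal protein genes had a median level of 5.99 log2 CPM. Other genes at the levels of these 2 groups had medians of 2.05 and 1.52, and 85.1% and 79.0% of them were called higher. Each of the 3 groups thus lay within 0.16 of its like-level median. No difference between the groups was tested.

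Markers of other cell types were called to differing extents in the first comparison. Resident macrophage markers were higher for 16 of 16, their summed derived level being 237 CPM in the denominator group and 4935 CPM in the numerator group, and megakaryocyte and platelet markers for 14 of 14, at 260 and 1937 CPM. Late neutrophil markers were higher for 8 of 12, at 470 and 3264 CPM, erythroid markers for 6 of 14 and lower for 3, at 1905 and 28657 CPM, and endothelial markers for 3 of 10, at 128 and 223 CPM. B cell progenitor markers were lower for 10 of 13, at 572 and 229 CPM, where 3.19% of other genes at like level were called lower. For the macrophage, megakaryocyte, neutrophil, erythroid and endothelial lists, 68.2%, 29.0%, 35.3%, 43.6% and 7.73% of other genes at like level were called higher. The erythroid share of 42.9% called higher lay near that of like-level genes, of which 3.18% were called lower. In the numerator group of the second comparison the macrophage markers summed to 131 CPM and 1 of them, C1qa, was called lower, at -2.41 (adjusted p = 0.0195 in the authors' deposited table). Levels derived from log2 values cannot be 0, so they do not show whether a marker was detected. The lowest were the macrophage markers Timd4, Siglec1 and Mertk, at 0.193, 0.196 and 0.197 CPM in the second numerator group. The part of the markers in the values of the mitochondrial ribosomal protein genes was not tested. In bulk RNA a change in the cells sampled and a change of RNA per cell cannot be told apart.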

How the data were processed

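Total RNA of sorted cells was made into libraries from 0.1 ug with a TruSeq kit, per the labels' protocols. Bowtie 0.12.2 and mm8 come from the submitters' processing notes; the programs that counted and tested, and the annotation, are not named there. The log2 fold changes and mean log2 CPM values were deposited by the authors for 12791 genes and 2 comparisons, per the file headers, with p-values and adjusted p-values that equal a recomputed Benjamini-Hochberg adjustment. Base 2 is inferred from the match of derived denominator levels. Values per library were not analysed here, so depth and replicates could not be examined and no count or log-scale test was run.

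Members, lists and thresholds were chosen with earlier results of these data known. Genes were called at an adjusted p under 0.05. Like-level medians weight other genes to the members' numbers per 0.5 log2 CPM of the first comparison. This step was tested on simulated data with a trend over level. There the level was held fixed while fold changes were drawn, but the deposited mean level holds the fold change in itself. The simulation thus cannot show how the step fares under that link. Group levels assume a numerator weight of 0.5. Coding lengths are of the GENCODE M21 transcript with the longest coding part, found for all 76 genes and 85.4% of the table. Named genes are, per subunit, the 5 largest and 5 smallest fold changes of the first comparison, the 3 highest and lowest levels, the 3 smallest p-values of the second comparison, the Mrps18 paralogs and, per list, up to 4 genes of smallest p. A gene that this rule names is not reported here. Mrpl10, Mrpl11, Mrpl13, Mrpl4, Mrps12, Mrps36 and Dap3 were named after their values were seen. Python 3.11.15 and pandas 2.3.3 were used.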

Additional observations from a re-analysis of the deposited data

How the results depend on the processing

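No paired analysis was possible because the table holds no value per library; for the same reason no library could be left out and no normalization of counts compared. In the first comparison the 28 calls became 20 at an adjusted p under 0.01, 31 under 0.1, 30 with only genes at 3 log2 CPM or more and 11 with a Bonferroni adjustment. The median of 0.52 became 0.66 less the median over all genes and -0.95 less the log2 ratio of the derived totals, an alternative chosen after seeing the data. The latter gave -0.96 for the large subunit, -0.94 for the small subunit, -0.89 for proteins with a bacterial counterpart and -1.12 for those without. The like-level median of 0.57 became 0.54 with steps of 1, 0.42 by denominator level, 0.70 less the median over all genes and -0.91 less the ratio of totals. In the second comparison there were 0 calls under each threshold, and the median of 0.05 became 0.0445 less the median over all genes and 0.0796 less the ratio of totals, where the like-level median became 0.0725. Mrpl47 turned from -0.06 to 0.0748 less the median over all genes. Leaving out Mrps36 and adding mitoribosome proteins under other names left the medians at 0.52 and 0.05. What depth limits is unknown.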
